A study of Mus musculus with 8 samples.

Results

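The genes described are 10 members of fibroblast growth factor (FGF) signalling in mouse retina: the ligand genes Fgf1, Fgf2 and Fgf9, the receptor genes Fgfr1, Fgfr2 and Fgfr3, and the feedback genes Spry2, Spry4, Dusp6 and Etv5. They were selected by gene symbol in a table of 26824 genes, and all 10 were present and passed the filter on low counts. The groups were 3 libraries labelled WT and 5 labelled Kv8.2 KO, a knockout of Kcnv2, which encodes a potassium channel subunit of photoreceptors. The mice were untreated and 1 month old, and 2 retinas were pooled for each library. The labels do not give the strain, the sex or the way the allele was made. The study's text says that 2 KO samples were left out of the authors' own test and does not name them, so all 8 libraries were compared.

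FGF ligands bind receptor tyrosine kinases at the cell surface together with heparan sulfate, and the activated receptor signals through RAS and the kinases RAF, MEK and ERK. ERK activity raises transcription of genes that restrain the same pathway, among them the sprouty genes and the ERK phosphatase gene Dusp6, and of ETS factors such as Etv5. In the retina FGF2 is known as a survival factor for photoreceptors that is made by photoreceptors and Muller glia and rises after injury.

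The libraries held 17759146 to 25188870 counts. Levels are given as counts per 1000000 (CPM) after TMM scaling, edgeR's correction for library composition. Kcnv2 itself was present in every library, at 519 to 551 CPM in WT and 398 to 585 CPM in the libraries labelled KO, at a log2 fold change of -0.24 (edgeR adjusted p-value 0.275). It was called lower in KO 4 to KO 6 (-0.38, edgeR adjusted p-value 0.000116) and when KO 2 was left out (-0.35, 0.0298). Over all libraries limma voom also called it lower (-0.36, adjusted p-value 0.00116). Kcnv2 was not called in KO 2 and KO 3 (-0.04, edgeR adjusted p-value 0.903), so its count does not check the KO label. The rod marker Gnat1 (7541 to 13250 CPM) was abundant in all 8 libraries. The first principal component, with 39.5% of the variance, set KO 4 to KO 6 (scores 45.7 to 58.1) apart from the other libraries (scores -40.2 to -11.9). No label names a batch, and KO 4 to KO 6 stand with no WT library, so this split and the KO label cannot be told apart within them. KO 3 held lens transcripts, as described with the receptors. Values for KO 2 and KO 3 against WT, and for KO 4 to KO 6 against WT, are therefore given beside those over all libraries. These comparisons share the WT libraries. The samples are bulk tissue, in which fewer cells of a type and less RNA per cell cannot be told apart.

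Of the 10 genes, 4 rose in the libraries labelled KO and none fell: Fgf2, Etv5, Spry4 and Fgfr1. Over all 20167 genes tested, edgeR called 7.58% at an adjusted p-value under 0.05, with 4.74% higher and 2.84% lower, which is 956 genes higher and 573 lower. Scaled by library size alone the split was 566 higher and 787 lower. The median log2 fold change was 0.45 for the 10 genes and 0.0007 for all genes tested. It rested on KO 3: without that library the median of the 10 genes was 0.12, and in KO 4 to KO 6 against WT it was 0.20. In 5 of the 10 genes every KO library lay above every WT library, and the share of all genes tested with no overlap in either direction was 20.9%, with 10.8% for KO above WT. Fgf2 and Etv5 were also called in KO 2 and KO 3 against WT, where 0.891% of genes were called, 0.624% higher and 0.267% lower. Over all KO libraries, Fgf2 and Etv5 were the 2 of the 10 called when any 1 WT library was left out, where 0.636% to 0.955% of all genes were called, and when KO 4, KO 5 or KO 6 was left out, where 1.84% to 2.68% were. In KO 2 and KO 3 against WT, Fgf2 alone was called when any 1 WT library was left out, where 0.0554% to 0.157% of all genes were called. KO 3 alone and KO 2 alone against WT gave 5 and 4 of the 10, where 2.96% and 16.8% of all genes were called, with the lone KO library taken to vary like the WT libraries. In KO 4 to KO 6 against WT 7 of the 10 were called, 4 higher and 3 lower, where 42.8% of all genes were called, 22.3% higher and 20.5% lower.

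**Figure D1:**
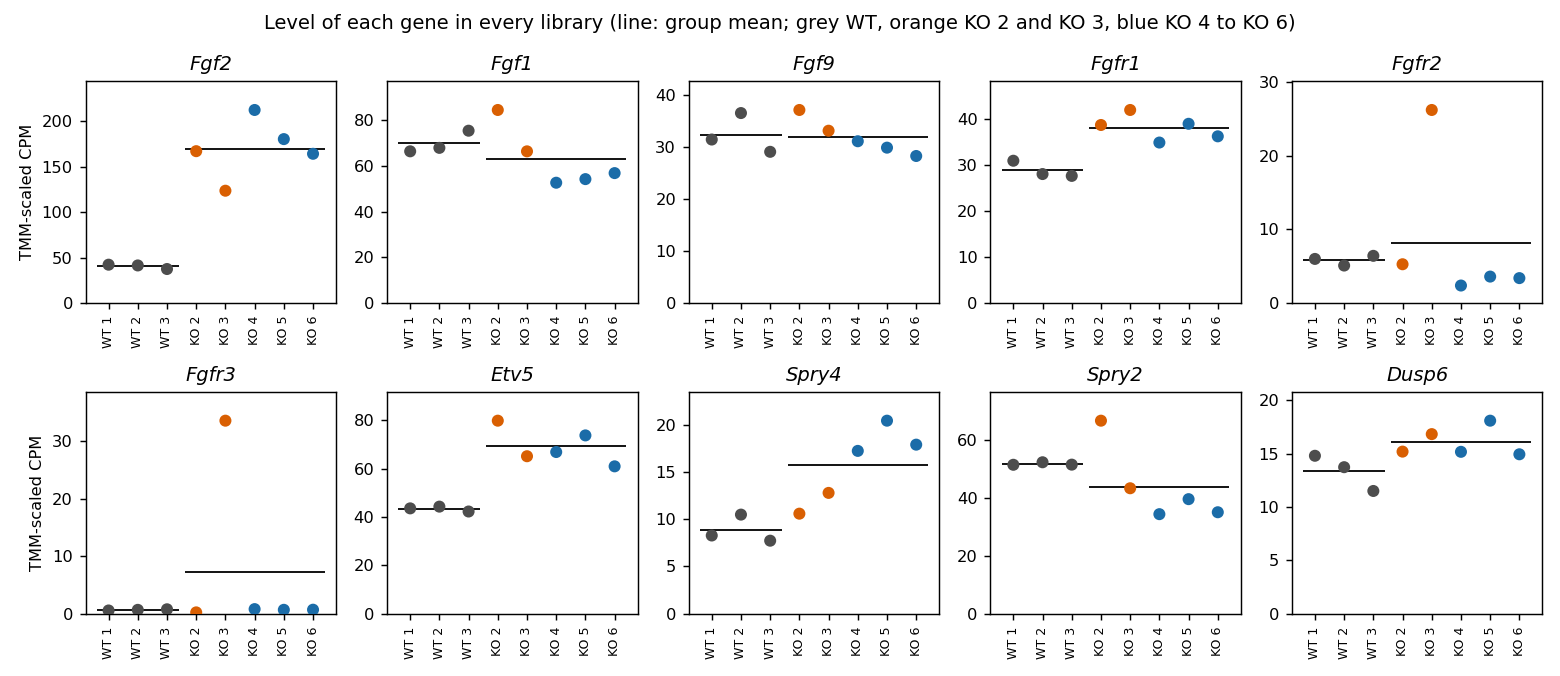
TMM-scaled CPM of the 10 genes in each library, on linear axes from 0, with 1 point per library and a line at each group mean. Fgf2, Etv5, Fgfr1, Spry4 and Dusp6 lie higher in each KO library than in each WT library, while Fgfr2 and Fgfr3 are high in KO 3 and Spry2 is high in KO 2.

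Fgf2 (ENSMUSG00000037225) encodes basic FGF, a ligand released without a classical signal peptide. WT 1 to WT 3 held 42.2, 41.3 and 37.4 CPM of it, from 769 to 879 counts. It stood at 167, 124, 213, 181 and 164 CPM in KO 2 to KO 6, from 2602 to 4319 counts. The lowest KO library was KO 3 and the highest KO 4, and all 5 were far above the 3 WT libraries. WT libraries averaged 40.3 ± 2.55 CPM (SD, n = 3) against 170 ± 32.1 CPM for KO (SD, n = 5). This was a 4.21-fold rise (log2 fold change 2.07, SE 0.16, edgeR adjusted p-value 0.000142). By p-value Fgf2 ranked 11 among the 20167 genes. Against WT, KO 2 and KO 3 had a log2 fold change of 1.85 (SE 0.13, edgeR adjusted p-value 0.00105). KO 4 to KO 6 had one of 2.22 (SE 0.09, edgeR adjusted p-value 2.56e-08). Fgf2 was called in each of the 30 alternative fits.

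Fgf2 lies on chromosome 3 (37348346 to 37410108, plus strand, GRCm38) and is overlapped at its end by Nudt6 on the other strand, which encodes a nudix hydrolase and is known as the FGF2 antisense gene. In GENCODE M21 the shared stretch is 640 exon bases, 9.44% of the exon bases of Fgf2 and 38.2% of those of Nudt6. Counting by strand is not given in the sources used here, so reads from the shared stretch cannot be assigned to a strand. Nudt6 held 49 to 61 counts in WT and 58 to 99 in KO, far fewer than Fgf2. Nudt6 stood at 2.69, 2.63 and 2.71 CPM in WT and 2.52, 4.71, 3.84, 3.78 and 3.60 CPM in KO 2 to KO 6, with KO 2 below every WT library. It was not called over all libraries (log2 fold change 0.46, SE 0.21, edgeR adjusted p-value 0.189) or in KO 2 and KO 3 (0.43, 0.462). In KO 4 to KO 6 edgeR called it higher (0.49, adjusted p-value 0.0461). Over all libraries limma voom called it higher (0.48, adjusted p-value 0.0264).

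The other ligands were not called over all libraries. Fgf1 encodes acidic FGF, which binds all FGF receptors, and was at 66.3, 67.9 and 75.4 CPM in WT. It was at 84.4, 66.3, 52.6, 54.2 and 56.8 CPM in KO 2 to KO 6. KO 2 lay above WT, KO 3 level with WT 1, and KO 4 to KO 6 below WT. Over all libraries the change was -0.15 on the log2 scale (SE 0.15, edgeR adjusted p-value 0.532). It was 0.11 for KO 2 and KO 3 (edgeR adjusted p-value 0.647) and -0.35 for KO 4 to KO 6, which was called (0.00154). Over all libraries limma voom called it lower (-0.32, adjusted p-value 0.0106). Fgf9, a secreted ligand, was at 31.4, 36.4 and 29.0 CPM in WT and at 37.0, 33.1, 31.03, 29.8 and 28.2 CPM in KO 2 to KO 6. The groups overlapped throughout, and the log2 fold change was -0.02 (SE 0.12, edgeR adjusted p-value 0.932).

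Levels can be compared between genes only per length, and were divided by the longest protein-coding transcript of each gene in GENCODE M21. In WT, Fgf1 led the ligands with 17.6 ± 1.21 CPM per kilobase (kb), followed by Fgf9 with 8.98 ± 1.06 and Fgf2 with 6.75 ± 0.427 (SD, n = 3), and their ranges did not overlap. In KO, Fgf2 was highest with 28.4 ± 5.37 CPM per kb, against 15.8 ± 3.31 for Fgf1 and 8.86 ± 0.949 for Fgf9 (SD, n = 5). The share of Fgf2 in the summed level of these 3 ligands was 18.82% to 21.75% in WT. It was 47.06% in KO 2, 44.48% in KO 3 and 55.45% to 61.98% among KO 4 to KO 6. The summed level was 32.5 to 34.1 CPM per kb in WT and 46.6 to 59.5 in KO. The order and the shares depend on the transcript length used. With the median length of each gene's transcripts, the mean CPM per kb of Fgf2, Fgf1 and Fgf9 was 75.32, 73.84 and 20.26 in WT and 317.3, 66.46 and 19.97 in KO, so Fgf2 and Fgf1 were nearly level in WT.

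**Figure D2:**
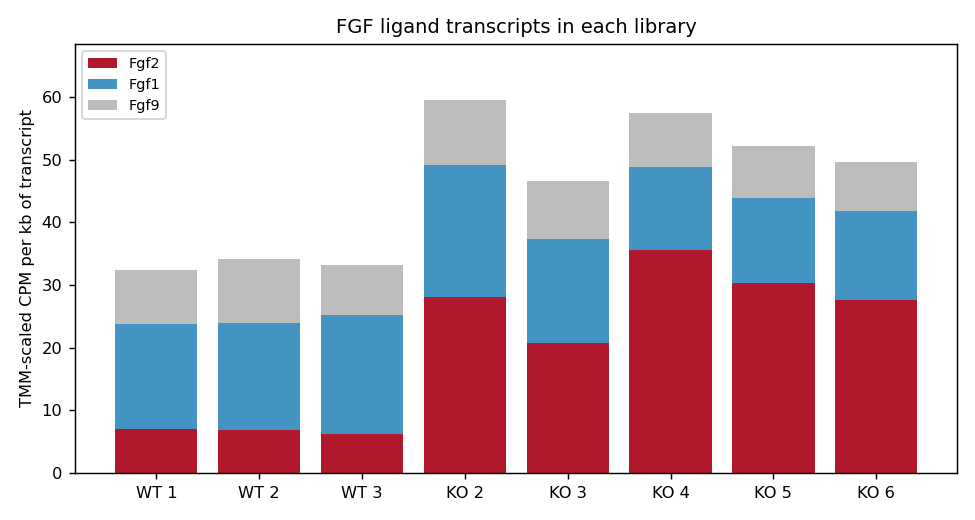
Summed level of the ligand genes Fgf2, Fgf1 and Fgf9 in each library, in TMM-scaled CPM per kb of the longest transcript. The Fgf2 segment grows from 6.26 to 7.06 CPM per kb in WT to 20.7 to 35.6 in KO, and the Fgf9 segment stays between 7.85 and 10.3 in all 8 libraries.

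Over all 10 genes, the order per kb in WT was Spry2 (24.8), Fgf1 (17.6), Etv5 (10.9), Fgf9 (8.98), Fgf2 (6.75), Fgfr1 (5.72), Dusp6 (4.77), Spry4 (1.86), Fgfr2 (1.35) and Fgfr3 (0.154), as mean CPM per kb. No range overlapped that of the next gene in this order. In KO the order began with Fgf2 (28.4), Spry2 (20.96), Etv5 (17.4) and Fgf1 (15.8), and each of these overlapped its neighbour in range. Fgfr2 and Fgfr3 stood last in both groups. This order holds for the longest transcript: with the median transcript length, Fgf2 and Fgf1 stood above Spry2 in WT, and Spry4 (1.86 CPM per kb) stood below Fgfr2 (2.53) there.

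Of the receptors, Fgfr1 rose. Fgfr1 was at 30.9, 27.98 and 27.6 CPM in WT and at 38.6, 41.9, 34.8, 38.9 and 36.2 CPM in KO 2 to KO 6. Every KO library was above every WT library. It averaged 28.8 ± 1.79 CPM in the WT libraries (SD, n = 3) and 38.1 ± 2.73 CPM in the KO libraries (SD, n = 5), a 1.32-fold rise (log2 fold change 0.40, SE 0.09, edgeR adjusted p-value 0.0325). It was 0.48 for KO 2 and KO 3, which was not called (edgeR adjusted p-value 0.0772), and 0.36 for KO 4 to KO 6, which was called (0.00223). The call was lost when any 1 of WT 1, WT 2, WT 3, KO 4, KO 5 or KO 6 was left out, with edgeR adjusted p-values of 0.0574 to 0.141, and with offsets for GC content (0.249, log2 fold change 0.23).

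Fgfr2 and Fgfr3 were highest in 1 library, KO 3. Fgfr3 was at 0.548, 0.658 and 0.755 CPM in WT and at 0.217, 33.5, 0.788, 0.664 and 0.683 CPM in KO 2 to KO 6. In counts this is 705 in KO 3 and 5 to 17 in each of the other 7 libraries. Fgfr2 was at 5.98, 5.08 and 6.39 CPM in WT and at 5.25, 26.2, 2.36, 3.58 and 3.37 CPM in KO 2 to KO 6. KO 3 again stood highest, KO 2 within the WT range, and KO 4 to KO 6 below WT. Neither was called over all libraries, with log2 fold changes of 3.44 (SE 1.65) for Fgfr3 and 0.49 (SE 0.71) for Fgfr2 and edgeR adjusted p-values of 0.208 and 0.697. Without KO 3 these values were -0.16 for Fgfr3 and -0.66 for Fgfr2, with edgeR adjusted p-values of 0.839 and 0.0832. Fgfr2 was called lower in KO 4 to KO 6 against WT, by a log2 fold change of -0.89 (SE 0.19, edgeR adjusted p-value 0.00254).

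KO 3 also stood apart in lens transcripts. The 14 genes of the lens list, crystallins and lens membrane and filament proteins, summed to 48670 CPM in KO 3, which was 4.745% of its counts (95% Wilson interval 4.736% to 4.754%, for counting error only). They summed to 1451 CPM in WT 2, 698 in WT 1, 206 in KO 2, 24.1 in WT 3 and 2.05 to 10.9 in KO 4 to KO 6. All 14 were highest in KO 3. The part of lens tissue in the levels of Fgfr2 and Fgfr3 was not tested. Of the summed level of Fgfr1, Fgfr2 and Fgfr3 per kb, Fgfr1 made up 76.7% to 80.6% in WT, 85.8% to 90.4% in the KO libraries other than KO 3, and 37.3% in KO 3. Fgfr3 shares 14.9% of its 31-base words with transcripts on the other strand, among them Nvl, whose level was 50.4 to 61.9 CPM in all 8 libraries.

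**Figure D3:**
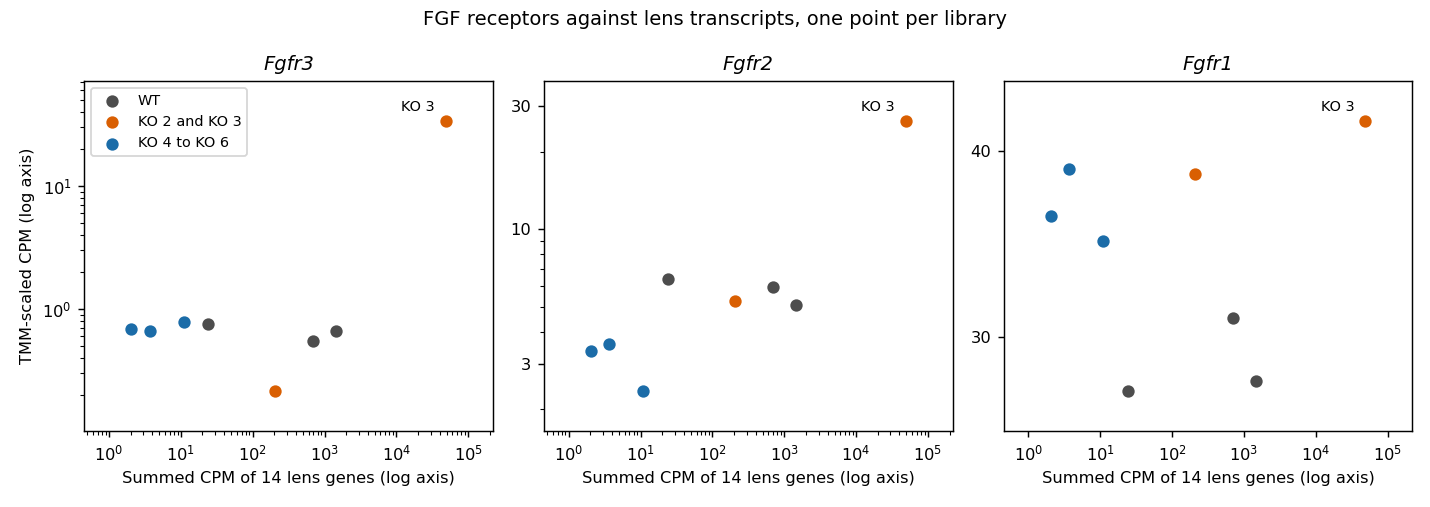
Level of Fgfr3, Fgfr2 and Fgfr1 in each library (TMM-scaled CPM, log axis) against the summed CPM of 14 lens genes (log axis), with 1 point per library. KO 3, with 48670 CPM of lens transcripts, lies highest for all 3 receptors, and for Fgfr1 the other KO libraries also lie above WT.

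Among the feedback genes, Etv5 and Spry4 rose. Etv5 (ENSMUSG00000013089, chromosome 16) encodes an ETS transcription factor of the PEA3 group. It was at 43.5, 44.2 and 42.2 CPM in WT and at 79.8, 65.1, 66.8, 73.7 and 60.9 CPM in KO 2 to KO 6. All KO libraries were above all WT libraries, KO 2 the most. WT averaged 43.3 ± 1.02 CPM (SD, n = 3) against 69.3 ± 7.48 CPM for KO (SD, n = 5), a 1.60-fold rise (log2 fold change 0.68, SE 0.10, edgeR adjusted p-value 0.00582). It was 0.74 for KO 2 and KO 3 and 0.64 for KO 4 to KO 6, both called, with edgeR adjusted p-values of 0.0246 and 3.7e-05, and the call in KO 2 and KO 3 was lost when any 1 WT library was left out. Etv5 shares 30.3% of its 31-base words with the gene Gm4798, which has no row in the table. The lowest total of any gene with a row was 16 counts over the libraries. Whether counts of Etv5 were split with that copy was not tested.

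Spry4, a sprouty inhibitor of receptor tyrosine kinase signalling, was at 8.28, 10.5 and 7.73 CPM in WT. It was at 10.6, 12.8, 17.2, 20.4 and 17.9 CPM in KO 2 to KO 6. KO 2 was barely above WT 2, and KO 4 to KO 6 were highest. WT averaged 8.83 ± 1.46 CPM (SD, n = 3) against 15.8 ± 4.01 CPM for KO (SD, n = 5), a 1.79-fold rise (log2 fold change 0.84, SE 0.22, edgeR adjusted p-value 0.0449). It was 0.40 for KO 2 and KO 3, which was not called (edgeR adjusted p-value 0.272), and 1.08 for KO 4 to KO 6, which was called (4.04e-05). The call was lost with library size alone (0.0662), with no filter (0.0517), and when any 1 of WT 1, WT 2, WT 3, KO 4, KO 5 or KO 6 was left out, with edgeR adjusted p-values of 0.0869 to 0.171.

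Spry2, the other sprouty gene, was at 51.4, 52.2 and 51.4 CPM in WT and at 66.6, 43.3, 34.3, 39.5 and 35.0 CPM in KO 2 to KO 6. KO 2 lay above WT and the 4 other KO libraries below. Over all libraries it was not called (log2 fold change -0.24, SE 0.19, edgeR adjusted p-value 0.447). Without KO 2 it was -0.44 and was called (edgeR adjusted p-value 0.0236). Over all libraries limma voom also called it lower (-0.47, adjusted p-value 0.00253). It was -0.50 (SE 0.07) for KO 4 to KO 6, which was called (0.000145), and 0.09 for KO 2 and KO 3 (edgeR adjusted p-value 0.801).

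Dusp6 encodes a cytoplasmic phosphatase of ERK. It was at 14.8, 13.7 and 11.5 CPM in WT and at 15.2, 16.8, 15.2, 18.1 and 14.9 CPM in KO 2 to KO 6. The groups did not overlap, but KO 6 and WT 1 were nearly level. It was not called (log2 fold change 0.27, SE 0.12, edgeR adjusted p-value 0.195). It was 0.26 for KO 2 and KO 3 and 0.28 for KO 4 to KO 6, neither called, with edgeR adjusted p-values of 0.359 and 0.082.

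**Figure D4:**
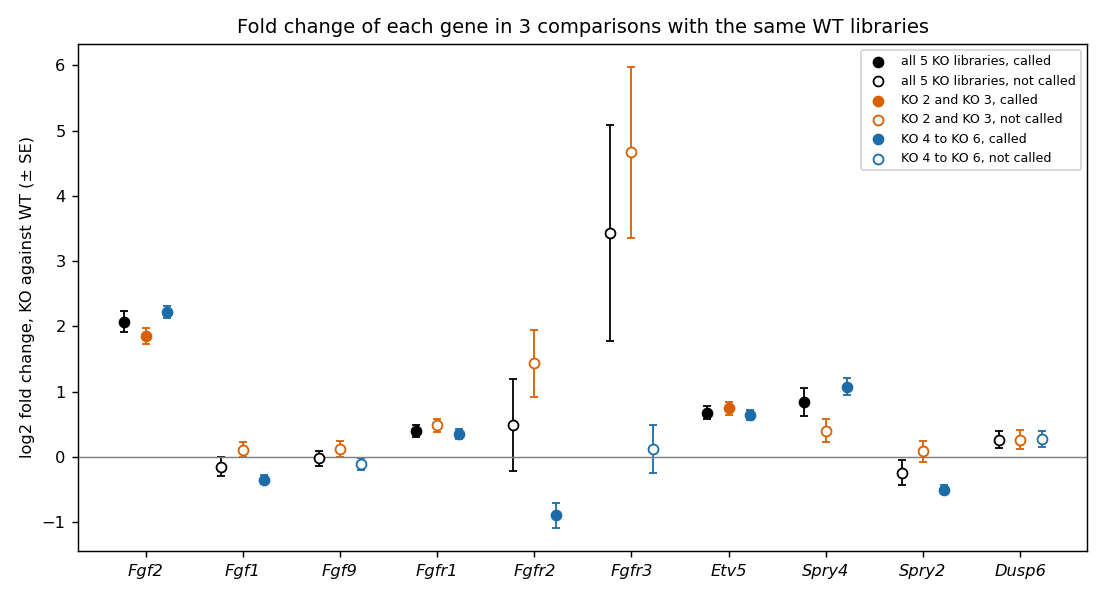
Log2 fold change of each gene with its SE, for all 5 KO libraries, for KO 2 and KO 3, and for KO 4 to KO 6, each against the same 3 WT libraries. Filled points passed an adjusted p-value under 0.05 in edgeR. Fgf2 and Etv5 are filled in each comparison, and the points of Fgf1, Fgfr2, Fgfr3, Spry2 and Spry4 lie apart between the KO subsets.

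Some markers of other retinal cells were called, beside 7.58% over all genes. Calls were 2 of 6 tested endothelial and pericyte genes, 2 of 5 microglia genes, 1 of 8 Muller glia genes and 2 of 6 cone genes. No gene was called in the rod, bipolar, astrocyte, amacrine and horizontal, ganglion, pigment epithelium, lens, cornea and ciliary body, or blood lists. The endothelial and pericyte list (6 genes) summed to 215 to 231 CPM in WT and 299 to 374 CPM in KO. Its 2 called genes were Kdr, which was 112 to 118 CPM in WT and 163 to 251 CPM in KO and made up most of the sum, and Pdgfrb, while others, such as Cldn5 and Rgs5, overlapped between the groups. The microglia list (5 genes) summed to 22.2 to 25.1 CPM in WT and 27.2 to 39.8 CPM in KO, with Csf1r and Tmem119 called higher. Cx3cr1 overlapped between the groups, and P2ry12 was at 2.08 to 3.15 CPM in WT, 3.95 CPM in KO 2, 2.66 CPM in KO 3 and 2.04 to 2.07 CPM in KO 4 to KO 6. The sum of the Muller glia list (8 genes) overlapped between the groups, at 3965 to 4182 CPM in WT, 4052 to 4570 CPM in KO 3 to KO 6 and 6087 CPM in KO 2, and was mostly Glul (2335 to 3655 CPM over all libraries). Crym was called higher, and Slc1a3 (171 to 181 CPM in WT, 186 to 278 CPM in KO) and Abcc9 (6.16 to 8.75 and 9.46 to 10.98 CPM) did not overlap between the groups but were not called. The cone list (6 genes) summed to 802 to 1010 CPM in WT and 537 to 706 CPM in KO, with Gnat2 and Pde6h called lower. Arr3 (146 to 159 CPM in WT, 44.2 to 116 CPM in KO) did not overlap between the groups but was not called. Opn1mw, Opn1sw and Cngb3 overlapped between the groups. No marker of the endothelial and pericyte, microglia, Muller glia and cone lists was at 0 in any library. The part of these differences in the levels of Fgf2, Etv5, Fgfr1 and Spry4 was not tested.

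The promoters of 7 of the 10 genes were found in RefSeq (GRCm38.p6), in 9 windows from 250 bases before to 50 after a start. They were searched on both strands for letters that FGF, ERK and injury responses are known to use. These were the ETS letters CCGGAAG, the EGR letters GCGTGGGCG, the cyclic AMP element TGACGTCA, the AP-1 letters TGANTCA and the STAT letters TTCCNNGAA. These letters occur in 8.86%, 0.612%, 1.79%, 7.81% and 4.81% of all 32851 promoter windows, in that order. None of the 9 windows held any of them, which says only that these letters are not in these windows. The GC box GGGCGG, known as a site of SP1 factors, and the TATA box TATAAA were searched after those 5 had given no match. No window held the TATA box, which occurs in 13.6% of all windows. The GC box, found in 35.7% of all windows, had 1 match in the window of Fgf2 and 3 in 1 of the 2 windows of Etv5. It was also found in both windows of Fgfr3, which makes 4 of 9 windows, and not in those of Fgf9, Fgfr2, Spry2 and Dusp6. A match is a description of the letters and not of binding. The 30-base stretches below show the match for Fgf2 and the farthest from the start for Etv5, with the GC box in capitals. The Fgf2 stretch lies at chr3:37348592-37348621 on the plus strand, 46 bases before the RefSeq start of its window. The Etv5 stretch lies at chr16:22439768-22439797 on the minus strand, 212 bases before the RefSeq start of its window. GENCODE M21 places the starts of these genes elsewhere, at 37348346 for Fgf2 and 22439719 for Etv5. By GENCODE M21 the Fgf2 stretch is inside the gene and the Etv5 stretch is before it.
Fgf2: aggcggcgcgcgGGGCGGgggcgcacgggg
Etv5: ccgcagatgatgGGGCGGcccagctggatt

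Other genes of the pathway were put in lists chosen with earlier results of these data known, so their counts are a description. These were 6 lists with 79 genes, of which 71 were in the table and 64 were tested. Of these 64, 10 rose, 2 fell and 52 were not called, beside 7.58% called among all genes. In KO 2 and KO 3 against WT, 4 of 65 were called, all higher, where 0.891% of all genes were called: Egr1, Fos, Ccnd1 and Sdc4. In KO 4 to KO 6 against WT, 37 of 64 were called, 22 higher and 15 lower, where 42.8% of all genes were called. In the comparison over all KO libraries the count moved with that over all genes. Without KO 3 it was 20, where 3992 of 19920 genes were called, and without any 1 WT library it was 2, where 0.636% to 0.955% were. Leaving out KO 4, KO 5 or KO 6 gave 4, 5 and 7, where 1.84%, 1.94% and 2.68% were called.

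**Figure D5:**
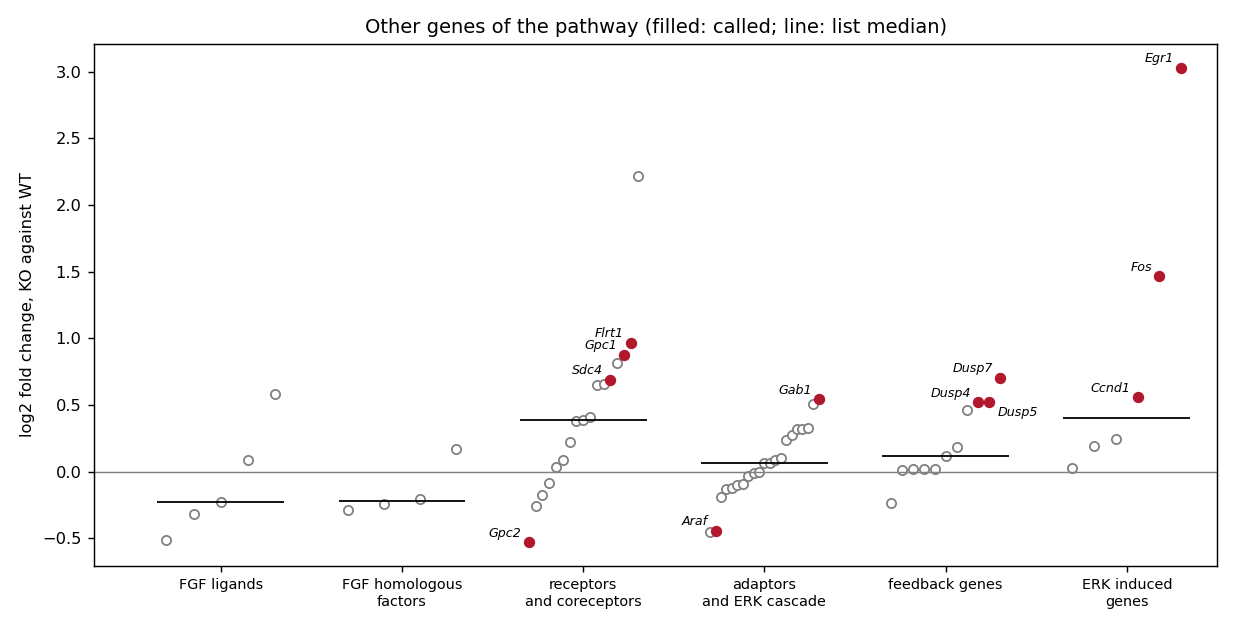
Log2 fold change, KO against WT over all 8 libraries, of the 64 tested pathway genes in 6 lists, with 1 point per gene and a line at each list median. Filled, named points passed an adjusted p-value under 0.05 in edgeR, 10 higher and 2 lower. The highest open point, at 2.22, is Hspg2.

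The ERK induced genes held the largest changes among called pathway genes. Of 6 tested, 3 were higher, where 4.74% of all genes were, and the list median was 0.40. Egr1, an immediate early transcription factor, was at 12.5, 14.8 and 18.5 CPM in WT and at 161, 128, 120, 136 and 76.9 CPM in KO 2 to KO 6. Every KO library was above every WT library (log2 fold change 3.03, SE 0.24, edgeR adjusted p-value 0.000142). Fos, a subunit of AP-1, was at 11.9 to 15.2 CPM in WT and at 32.8 to 45.7 CPM in KO, a log2 fold change of 1.46 (SE 0.14, edgeR adjusted p-value 0.000746). Ccnd1, which encodes cyclin D1, was at 30.3 to 32.6 CPM in WT and 40.5 to 49.3 CPM in KO, a log2 fold change of 0.56 (SE 0.09, edgeR adjusted p-value 0.00927). Egr1 and Fos were called in each of the 30 alternative fits, and Ccnd1 lost its call when any 1 WT library was left out (edgeR adjusted p-values up to 0.0663). Myc (0.20), Ier3 (0.24) and Phlda1 (0.03) were not called, and Fosl1 was below the filter.

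The 11 tested feedback genes outside the 10 had a list median of 0.11. Of these, 3 rose and none fell, where 4.74% of all genes rose and 2.84% fell. These 3 were MAP kinase phosphatase genes like Dusp6. Dusp7, whose product acts on ERK in the cytoplasm, was at 52.9 to 58.9 CPM in WT and 70.9 to 113 CPM in KO, a log2 fold change of 0.70. Dusp4 and Dusp5, whose products act in the nucleus, had log2 fold changes of 0.52 and 0.53, and the edgeR adjusted p-values of the 3 genes were 0.0258 to 0.028. None of the 3 was called in KO 2 and KO 3 against WT (edgeR adjusted p-values 0.0998 to 0.158). Spry1 (0.46), Il17rd (0.18), Etv1 (0.02) and Etv4 (-0.23) were not called. Dusp4, Dusp5 and Dusp7 each lost the call when any 1 WT library, KO 4 or KO 5 was left out, and Dusp4 and Dusp5 also without KO 6.

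Of 17 tested receptors and coreceptors, 3 rose and 1 fell, where 4.74% of all genes rose and 2.84% fell. Sdc4, a syndecan that carries heparan sulfate, was at 63.2 to 66.6 CPM in WT and at 132, 116, 94.2, 98.9 and 86.6 CPM in KO 2 to KO 6, a log2 fold change of 0.69 (edgeR adjusted p-value 0.018). It was also called in KO 2 and KO 3 against WT (0.00546). Gpc1, a glypican, averaged 20.3 ± 0.665 CPM in the WT libraries (SD, n = 3) and 37.3 ± 8.72 CPM in the KO libraries (SD, n = 5). Flrt1, a membrane protein that binds FGF receptors, averaged 10.1 ± 0.684 CPM and 19.8 ± 5.85 CPM (SD, the same n). Gpc2, another glypican, fell from 11.8 ± 0.935 CPM to 8.18 ± 1.13 CPM (SD, the same n; edgeR adjusted p-value 0.049). It was called in 9 of the 30 alternative fits, and not with the lens list left out (0.0521). Gpc1, Flrt1 and Gpc2 were not called in KO 2 and KO 3 against WT (edgeR adjusted p-values 0.0699 to 0.163). Hspg2, which encodes perlecan, was at 7.35, 4.796 and 6.17 CPM in WT and at 8.03, 106, 10.1, 8.69 and 9.61 CPM in KO 2 to KO 6, highest in KO 3, the lens library. It was not called over all libraries (edgeR adjusted p-value 0.158) and was called higher in KO 4 to KO 6 against WT (log2 fold change 0.64, edgeR adjusted p-value 0.00619).

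Of 21 tested adaptors and kinases, Gab1, a docking protein of receptor signalling, rose, Araf, a RAF kinase, fell, and 19 were not called, a share near the 7.58% called over all genes. Gab1 was at 19.4 to 20.2 CPM in WT and 24.8 to 31.5 CPM in KO, a log2 fold change of 0.54 (edgeR adjusted p-value 0.0173). Araf was at 183 to 203 CPM in WT and 123 to 152 CPM in KO, a log2 fold change of -0.44 (edgeR adjusted p-value 0.0266). Both lost the call when any 1 WT library or KO 4 was left out, and Araf also without KO 5 and with offsets for GC content (log2 fold change -0.33, edgeR adjusted p-value 0.0932). The 4 called coreceptors lost it when any 1 WT library was left out, and Gpc1, Flrt1 and Gpc2 also without KO 4, KO 5 or KO 6. Of the other FGF ligands, 9 of 15 were in the table, 5 were tested and none was called. One of them, Fgf10, was at 3.62 ± 0.412 CPM among WT (SD, n = 3) and 2.54 ± 0.702 CPM among KO libraries (SD, n = 5), with KO 2 inside the WT range. It was called lower in KO 4 to KO 6 against WT (log2 fold change -0.81, edgeR adjusted p-value 0.00644) and not in KO 2 and KO 3 (-0.15, 0.758).

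The genes whose log2 CPM followed Fgf2 most closely over the 8 libraries were sought among 14234 other genes, outside the sex chromosomes, whose log2 CPM averaged 1 or more. The 5 with the highest Pearson r were Lrrc2 (0.998), Nin (0.997), Stat3 (0.995), Sptan1 (0.994) and Camk2g (0.992). These points share libraries and the split into WT and KO, so the values are a description. Lrrc2 encodes a leucine-rich repeat protein and was at 33.2 to 38.3 CPM in WT and at 132, 111, 172, 156 and 130 CPM in KO 2 to KO 6. As for Fgf2, KO 4 was its highest library and KO 3 its lowest KO library. Stat3, the transcription factor of gp130 cytokine signalling, was at 53.0 to 60.9 CPM in WT and at 109 to 164 CPM in KO. Of the other FGF genes described, Etv5 (r = 0.942), Fgfr1 (0.846) and Spry4 (0.839) were closest to Fgf2.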

How the data were processed

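Total RNA from dissected mouse retinas was sequenced, per the labels' protocols, in 3 WT and 5 KO libraries. The authors deposited a table of counts per gene, whole numbers without normalization, in which every gene has at least 16 counts over the libraries. The submitters' processing notes name Trim Galore, Salmon 1.10.2, DESeq2 and GRCm38 with no roles, so the counts may be rounded estimates. Strand setting and annotation are not given in the sources used here. Counts were scaled by TMM, filtered with filterByExpr and compared with edgeR 4.0.16 (quasi-likelihood test) under R 4.3.3, with Benjamini-Hochberg adjustment over all genes tested. The threshold for a call was 0.05 on the adjusted p-value. The fold change and its F statistic gave each standard error.

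Depth was 17759146 to 25188870 counts, so 3 counts equal 0.119 to 0.169 CPM. Libraries of 1 group differed by more than sampling noise (chi-square per degree of freedom 5.75 or more). P-values measure the spread between these libraries. GENCODE M21 (GRCm38) supplied positions, lengths, GC content and shared 31-base words, with 22121 of the 26824 genes matched by identifier. The fits were tested on simulated data in which 200 genes had a 2-fold change. Of these, 57.5% were called over all libraries, 50.5% in KO 2 and KO 3 and 67.5% in KO 4 to KO 6. Calls among unchanged genes were 6, 12 and 10, in that order. The members and lists were chosen with earlier results of these data known. Genes named by rule are the 10 members, Kcnv2, Nudt6, called pathway genes and the 5 genes most like Fgf2. Other pathway genes, markers and genes that share sequence were named after their values were seen. Alternatives were DESeq2 1.42.0 and its size factors, library size alone, the lens list left out, limma 3.58.1 voom with quality weights, other filters, offsets for GC content, each library and each pair of KO libraries left out, and a replicate block.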

Additional observations from a re-analysis of the deposited data

Results flagged for a closer look

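Fgfr3 in KO 3 stood far above the other libraries labelled KO. On the log2 CPM scale the gap from KO 3 to the next KO library was 0.778 of the whole range of the 5 libraries, past the limit of 0.71 for a group of 5. Its level was 33.5 CPM there and 0.217 to 0.788 CPM in KO 2 and KO 4 to KO 6. The summed lens list was 48670 CPM in KO 3 and 2.05 to 206 CPM in those 4 libraries, and its part in the level of Fgfr3 was not tested. Such gaps were searched for in 12 genes (the 10 described, Nudt6 and Kcnv2), and 1 passed, where chance passes about 1 in 20.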

How the results depend on the processing

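Fgf2, Egr1 and Fos were called in each of 30 alternative fits, Etv5 in 27, Fgfr1 and Spry4 in 13 each, and Dusp6 and Fgf9 in none. Over all genes the 1529 calls became 3130 with DESeq2, 8248 with limma voom, 180 for KO 2 and KO 3 and 8416 for KO 4 to KO 6. Leaving out 1 library or a pair of KO libraries other than KO 2 with KO 3 gave 118 to 3992 calls. It gave 1 to 5 of the 10 genes (4 with all libraries) and 2 to 20 of the other pathway genes (12 with all libraries). The pair KO 2 with KO 3 is in none of the ranges for libraries left out, as that fit is KO 4 to KO 6 against WT. The pathway count was 32 with voom, 4 for KO 2 and KO 3 and 37 for KO 4 to KO 6, and that of the 10 genes was 2 and 7 in these subsets and 6 with voom, which called Fgf1 and Spry2 lower. Within KO 2 and KO 3 it was 1 to 5 with 1 library left out. Only numbers 2 and 3 are shared by both groups, and nothing in the labels pairs them (correlation of deviations -0.186). On those 4 libraries the replicate block gave 52 calls (1 of the 10 genes, 3 pathway genes) and no block 14 (1 and 2). The crossed block gave 527 (3 and 5). It and the fit with no block were chosen after seeing the data. Signs of genes not called over all libraries reversed as follows, on the log2 scale. For the block, no block, crossed block and KO 2 and KO 3, in that order, Fgf1 was 0.0665, 0.0746, 0.0668 and 0.1106, Fgf9 was 0.1060, 0.0994, 0.1065 and 0.1197, and Spry2 was 0.0522, 0.0842, 0.0541 and 0.0890. Fgf9 was 0.2426 with GC offsets and -0.0920 to 0.0843 with libraries left out. Fgfr2 was -0.7952 with voom, -0.8940 for KO 4 to KO 6 and -0.6640 to 1.0060 with libraries left out. Fgfr3 ranged from -0.3390 to 4.1425 with libraries left out. The cause was not tested. Depth limits Fgfr3, with 5 to 17 counts outside KO 3.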

Other observations

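The FGF homologous factors Fgf11 to Fgf14, which bind sodium channels inside the cell and do not activate FGF receptors, were not called over all libraries (edgeR adjusted p-values 0.264 to 0.434). In KO 4 to KO 6 against WT all 4 were called, where 42.8% of all genes were. Fgf12 was at 108 ± 8.01 CPM in WT and 68.6 ± 1.61 CPM in KO 4 to KO 6 (SD, n = 3 each), a log2 fold change of -0.64. Fgf13 (-0.29) and Fgf14 (-0.46) were also lower there, and Fgf11 was higher (0.23). In KO 2 and KO 3 against WT the values were 0.13 for Fgf12, -0.07 for Fgf13, 0.05 for Fgf14 and 0.09 for Fgf11, none called (edgeR adjusted p-values 0.667 to 0.866).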
